A study of Mus musculus with 49 samples.

Results

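Type I interferon-stimulated genes are the genes that cells switch on after interferon alpha or beta binds its receptor. A list of 35 of them was followed here through 49 RNA sequencing libraries of nanoparticle-treated and control mice, out of 55487 genes in the table. The members were taken by gene symbol: the regulators Irf7, Stat2, Irf9, Usp18 and Isg15, the nucleic acid sensors Ifih1, Dhx58 and Zbp1, and the antiviral effectors of the Oas, Ifit, Mx and Gbp families and their companions. All 35 were found under 1 gene ID each.

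The libraries came from 6 HuHER2 transgenic mice, a strain that carries human HER2 and forms mammary tumors. Palpation for tumors began at 7 months of age. Once a tumor was found, each mouse received 1 intravenous injection: 3 mice got BP, an iron oxide nanoparticle known here only by that code, at 5 mg Fe per mouse, and 3 mice got PBS. Organs were taken 7 days later according to the design text, while a protocol label names 31 days, and the promoter of the transgene is not given in the sources used here. The nanoparticle-associated libraries hold cells that were freed by digesting half-sections of organs of BP mice and then held by a magnet. Liver, spleen, tumor and bone marrow gave 3 of these libraries each and the lymph node gave 1, which makes 13. The bulk libraries hold RNA of undigested tumor, lymph node, spleen, liver, bone marrow and lung of 3 BP mice and 3 PBS mice, 36 in all. Every mouse carried the transgene and a tumor, so no group shows a healthy animal, and digestion and sorting cannot be told apart from nanoparticle uptake.

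Interferons alpha and beta bind the receptor pair Ifnar1 and Ifnar2, which activates the kinases Jak1 and Tyk2. These phosphorylate Stat2, which joins Irf9 in a complex that binds the interferon-stimulated response element in target promoters. Irf7 amplifies the loop by driving more interferon genes, while Usp18 and the Socs proteins damp it. In liver, spleen and lymph node, macrophages and plasmacytoid dendritic cells are known sources of these interferons.

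The promoters of 4 members that the later results turn on are shown to let the response element be seen. They are RefSeq sequences of build GRCm38.p6 that run from 250 bases before the annotated start to 50 after it, 5′ to 3′ on the gene's strand. Capitals mark the letters GAAANNGAAA (a core of the response element) or TTCNNNGAA (a core of the gamma-activated site) on either strand, with overlapping matches allowed. The first is Trim30a (chr7:104465144-104465443, minus strand), the next 3 are Ifit2 (chr19:34550444-34550743, plus strand), Ifit3 (chr19:34583279-34583578, plus strand) and its near-copy Ifit3b (chr19:34607707-34608006, plus strand).
Trim30a: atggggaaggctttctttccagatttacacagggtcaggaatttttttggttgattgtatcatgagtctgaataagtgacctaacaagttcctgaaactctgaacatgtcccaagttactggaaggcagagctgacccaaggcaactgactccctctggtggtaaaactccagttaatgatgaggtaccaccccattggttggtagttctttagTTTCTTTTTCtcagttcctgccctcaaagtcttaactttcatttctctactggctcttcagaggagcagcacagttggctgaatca
Ifit2: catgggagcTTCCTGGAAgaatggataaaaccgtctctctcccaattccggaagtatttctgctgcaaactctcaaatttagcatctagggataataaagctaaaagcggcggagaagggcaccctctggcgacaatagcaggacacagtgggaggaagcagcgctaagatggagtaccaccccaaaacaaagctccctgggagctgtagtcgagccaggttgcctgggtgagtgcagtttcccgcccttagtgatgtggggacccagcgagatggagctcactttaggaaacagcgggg
Ifit3: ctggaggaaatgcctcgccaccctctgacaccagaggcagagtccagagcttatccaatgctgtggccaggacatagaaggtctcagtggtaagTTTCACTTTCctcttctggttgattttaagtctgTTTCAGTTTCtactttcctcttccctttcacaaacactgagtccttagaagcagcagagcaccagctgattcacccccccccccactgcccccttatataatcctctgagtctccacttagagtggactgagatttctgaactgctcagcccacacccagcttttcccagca
Ifit3b: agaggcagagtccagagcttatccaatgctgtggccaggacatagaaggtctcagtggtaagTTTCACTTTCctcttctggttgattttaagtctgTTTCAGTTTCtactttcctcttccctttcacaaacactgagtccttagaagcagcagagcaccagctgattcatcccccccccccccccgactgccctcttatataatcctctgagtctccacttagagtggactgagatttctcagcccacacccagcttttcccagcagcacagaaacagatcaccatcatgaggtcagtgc
Trim30a had 1 response element match, which began 36 bases before the start. Ifit3 and Ifit3b had 2 matches each. Those of Ifit3 began 156 and 122 bases before the start and those of Ifit3b began 188 and 154 bases before it. Ifit2 had none in this window and 1 gamma-activated match 241 bases before the start. Gbp3 and Xaf1, also called in 2 organs each, are not shown. Gbp3 had 2 response element matches, and Xaf1 had 0 matches of either kind. Of the 26 members with an entry among 32851 promoters, 15 held the response element letters, 8 of them at least 2 times, against 3.44% of all promoters. Isg15, the ubiquitin-like modifier, held 3 overlapping copies that began 78, 72 and 66 bases before its start. The gamma-activated letters stood in 7 of the 26 members, against 8.3% of all promoters. These are letter matches in a fixed window and do not show binding.

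Each library held between 9362264 and 19734849 counts, so that 3 counts, the smallest level taken as detectable, equal 0.152 to 0.32 CPM (the count of a gene scaled to a common library size). Such limits cover counting error only. Organ markers fitted the labels: summed hepatocyte markers reached 78587 to 101350 CPM in bulk liver, and summed mammary epithelium markers 10018 to 18965 CPM in bulk tumor. Summed marker values, here and below, are CPM of library totals. The mitochondrial share of counts was 48.2 to 57.2% for liver cells that held nanoparticles and 5.67 to 7.06% for bulk liver. It was 19.5% in the bulk tumor of BP mouse 1, against 3.06 to 8.33% in the other bulk tumors, and 28.6% in the bulk lymph node of PBS mouse 2, against 5.80 to 11.6% in the other bulk nodes. Mouse 2 of the BP group had 3192 CPM of skeletal muscle markers in its tumor library. In bulk tissue, fewer cells of a type and less RNA per cell cannot be told apart.

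Without nanoparticles, the members were already detected in all organs, some of them near the limit, and the organ with the highest median differed between genes. Ifit3b had 0.253 to 1.02 CPM in bone marrow and Mx1 0.507 to 0.615 CPM in liver. In bulk organs of PBS mice, set on library totals, 12 of the 35 members had their highest median in the mammary tumor, 7 in the lung and 4 each in lymph node, spleen, liver and bone marrow. With a common scaling of all libraries it was 11 in tumor, 7 in lung, 6 in liver, 5 in bone marrow and 3 each in lymph node and spleen. In 8 members the 3 mice of the leading organ lay above all mice of every other organ, on library totals. Of these, 2 led in tumor and 0 in liver. These levels are descriptions and were not tested.
Rsad2, the antiviral enzyme viperin, was highest in bone marrow at a median of 347 CPM (range 333 to 351), with spleen next at 194 CPM and liver last at 3.21 CPM. Isg20, an exonuclease that degrades viral RNA, followed the same order, with 229.6 CPM in bone marrow (229 to 273), 164 CPM in spleen and 2.61 CPM in liver. Both genes therefore stood highest in the blood-forming organs. Ifi27l2a, a small interferon-induced membrane protein, led in lymph node at 181 CPM (121 to 378), against 49.8 CPM in spleen, the next organ, and 1.67 CPM in liver, the last. Ifit3, of the RNA-binding Ifit family, led in lung at 85.7 CPM (72.5 to 91.6), against 7.26 CPM in liver and 1.38 CPM in bone marrow. Eif2ak2, the kinase PKR that stops translation on double-stranded RNA, led in tumor at 70.8 CPM (60.4 to 76.8), with lung next at 28.9 CPM. Ifi44 also led in tumor, at 20.8 CPM, but its 3 mice spread from 7.07 to 66.1 CPM. Ifi35 led in lung at 72.2 CPM and Stat2 in spleen at 56.5 CPM, although a common scaling of all libraries put the top of Stat2 in liver.
Among genes compared per kilobase of exon, Ifitm3, which blocks viral entry at membranes, had the highest level of the 35 in tumor (259 CPM per kb), lung (382), liver (359), bone marrow (180) and spleen (112), as the median of 6 bulk libraries. In lymph node Ifi27l2a came first at 459 CPM per kb and Ifitm3 second at 114.

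**Figure D1:**
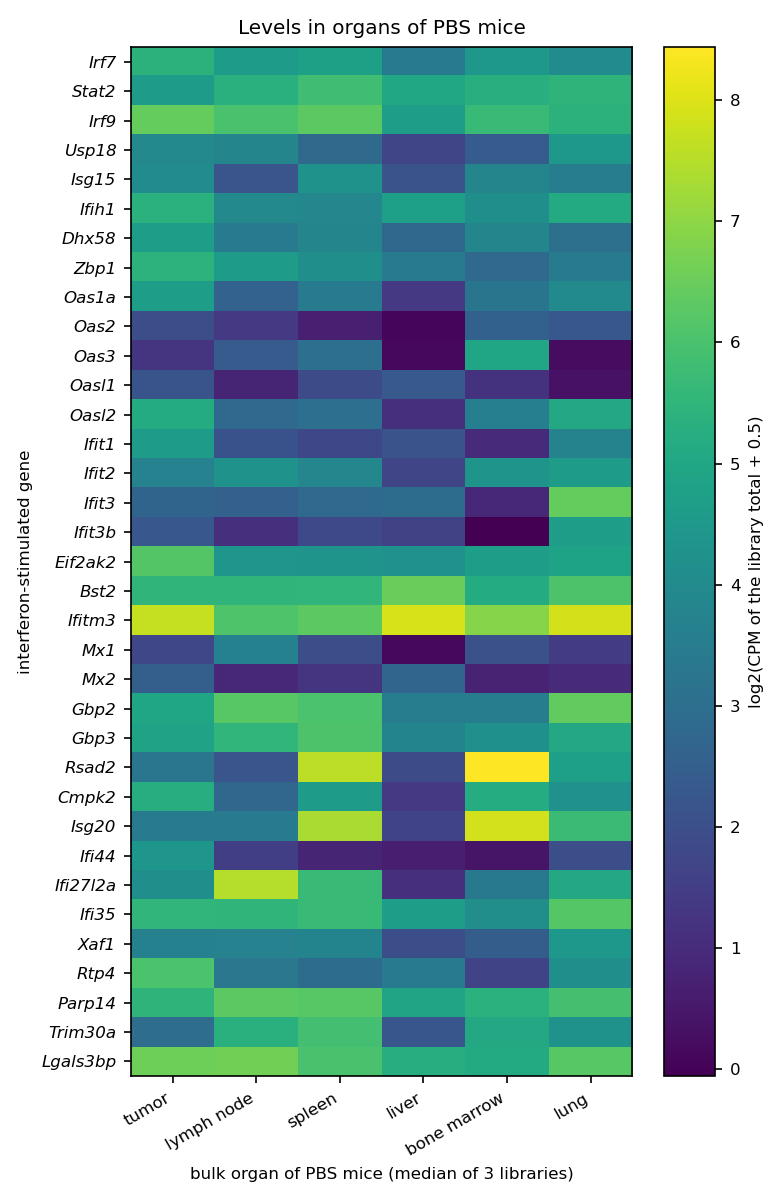
Levels of the 35 interferon-stimulated genes (rows) in bulk organs of PBS mice (columns), as log2 of CPM of library totals plus 0.5, median of 3 libraries. Ifitm3 is high in every organ, Rsad2 and Isg20 are brightest in bone marrow and spleen, and Ifit3 stands out in lung at 85.7 CPM.

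The first comparison of the study asks whether BP changes bulk organs. In none of the 6 organs did a member pass the test between BP and PBS mice (edgeR quasi-likelihood test, adjusted p under 0.05). In tumor it was 0 of 35, with 0% of all 14535 genes called. In lymph node it was 0 of 35 (0% of 15341 genes), in spleen 0 of 35 (0% of 15195) and in lung 0 of 35 (0% of 15714). In liver it was 0 of 34 (0.0235% of 12740 genes) and in bone marrow 0 of 34 (0% of 13969), since Mx1 in liver and Ifit3b in bone marrow were too low to test. At an unadjusted p under 0.05 there were 1 member in tumor, 8 in lymph node, 0 in spleen, 4 in liver, 1 in bone marrow and 0 in lung, where 5.96%, 3.61%, 0.711%, 3.56%, 1.32% and 0.872% of all genes reached that level. DESeq2 called 1 member, Ifi27l2a in tumor, and no other in any organ.

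The lymph node had the most one-sided values. There 33 of 35 members had a log2 fold change above 0 and their median was 0.86, against -0.01 over all genes, of which 49.3% were above 0. The median was 0.45 without BP mouse 1 and 1.21 without BP mouse 3. On library totals, which shifted the median of all genes by 0.15, it was 1.00.
Irf7, the master regulator of interferon production, had 107, 63.1 and 23.9 CPM in lymph nodes of BP mice 1, 2 and 3, against 21.3, 21.7 and 23.1 CPM in PBS mice. All 3 BP values lay above the PBS values, although BP mouse 3 only just did, and the log2 fold change was 1.55 ± 0.48 (SE, n = 3 mice each, edgeR adjusted p = 0.866). Isg15 had 26.7, 19.8 and 5.19 CPM in BP mice and 3.56, 4.54 and 6.72 CPM in PBS mice (log2 fold change 1.80 ± 0.59, adjusted p = 0.866). Usp18, the protease that removes Isg15 and quiets the receptor, had 44.1, 25.7 and 11.6 CPM in BP mice and 14.3, 11.2 and 12.9 CPM in PBS mice (1.079 ± 0.45). In both genes mice 1 and 2 of the BP group stood above every PBS mouse and mouse 3 stood among them.
The oligoadenylate synthetases, which make the signal that activates RNase L, showed the same order. Oas1a had 39.7, 25.2 and 3.59 CPM in BP mice, against 4.87, 7.64 and 6.72 CPM in PBS mice (1.84 ± 0.75). Oas2 had 19.5, 3.57 and 1.02 CPM in BP mice, against 1.78, 1.55 and 3.15 CPM in PBS mice (1.89 ± 0.98), and Oas3 had 24.4, 11.4 and 3.33 CPM against 4.54, 3.82 and 4.48 CPM (1.60 ± 0.65). For all 3 genes BP mouse 3 lay below every PBS mouse.
Ifit1, which binds viral RNA caps, had 29.7, 10.7 and 2.69 CPM in BP mice and 3.23, 3.11 and 7.80 CPM in PBS mice (1.61 ± 0.82). Mx2, a dynamin-like GTPase annotated as a polymorphic pseudogene, had 10.5, 5.59 and 1.41 CPM in BP mice and 1.19, 1.19 and 3.07 CPM in PBS mice (1.67 ± 0.76). Stat2 moved less, with 61.5, 46.7 and 35.5 CPM in BP mice and 38.5, 31.4 and 38.5 CPM in PBS mice (0.41 ± 0.23). The groups did not overlap in 2 members, Irf7 and Mx1, both higher in BP mice, where 6.81% of all genes had groups apart. None of these fold changes passed the test, the adjusted p of every member being 0.866 or more.
Summed plasmacytoid dendritic cell markers, of which all 6 were detected in every bulk lymph node, were 170, 106.1 and 93.0 CPM in BP mice and 125, 49.1 and 66.0 CPM in PBS mice. Adipocyte markers varied in these nodes from 97.2 to 3533 CPM in BP mice and from 1063 to 4606 CPM in PBS mice. Summed B cell markers were 2393, 2073 and 1649 CPM in BP mice and 1825, 862 and 1077 CPM in PBS mice, and macrophage markers 949, 650.5 and 536 CPM in BP mice and 561, 285 and 615 CPM in PBS mice. Natural killer cell markers were 94.7, 94.8 and 58.2 CPM in BP mice and 75.0, 42.3 and 49.3 CPM in PBS mice, and T cell markers 1305, 2280.0 and 1240 CPM in BP mice and 1828, 737 and 1047 CPM in PBS mice. All of these lists overlapped between the groups. These sums are on library totals, while the member values above use TMM scaling, and the node of PBS mouse 2 had 28.6% mitochondrial counts. The part of these cells in the values of the members was not tested.

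In bulk tumor the members differed more between mice than between treatments. The median fold between the highest and the lowest of the 6 mice was 8.22 in tumor, against 3.68 in lymph node, 2.501 in liver, 2.08 in spleen, 1.88 in lung and 1.72 in bone marrow. All genes varied most in tumor too, with a biological coefficient of variation of 0.513, against 0.381 in lymph node, 0.271 in lung, 0.268 in spleen, 0.161 in liver and 0.15 in bone marrow.
Irf7 had 131, 47.3 and 16.6 CPM in tumors of BP mice 1, 2 and 3, against 15.5, 40.6 and 122 CPM in PBS mice (log2 fold change 0.13 ± 0.90, adjusted p = 0.977). Usp18 had 28.2, 23.4 and 1.51 CPM in BP mice, against 3.40, 14.4 and 29.6 CPM in PBS mice (0.16 ± 1.05). Isg15 had 44.4, 41.0 and 4.94 CPM in BP mice, against 7.68, 15.4 and 38.3 CPM in PBS mice (0.56 ± 0.86). The groups overlapped in each gene: mouse 1 was highest and mouse 3 lowest within the BP group, and mouse 3 highest and mouse 1 lowest within the PBS group. Stat2 followed them at 55.8, 24.9 and 13.1 CPM in BP mice and 15.3, 23.5 and 48.6 CPM in PBS mice. Of the 35 members, 23 had a log2 fold change above 0 in tumor, with a median of 0.13. Over all genes 45.9% were above 0 and the median was -0.05. Set on library totals the members' median was -0.05 and 13 members were above 0, so the sign of their median depended on the scaling. Xaf1 and Mx2 had log2 fold changes of 0.67 ± 0.87 and 0.59 ± 0.91, while Oas3, Cmpk2 and Ifit2 had -0.79 ± 1.42, -0.62 ± 0.91 and -0.61 ± 0.68. Each of the last 3 turned above 0 without PBS mouse 3, at 1.82, 0.20 and 0.21, and Mx2 was at -0.075 without BP mouse 1.
Ifi27l2a had the lowest p of the members in tumor. It had 1025, 159.5 and 22.3 CPM in BP mice, against 16.6, 3.90 and 26.9 CPM in PBS mice (4.67 ± 1.42, unadjusted p = 0.0132, adjusted p = 0.797), so that BP mouse 3 lay within the PBS values. DESeq2 and a fit over 48 libraries called it. Adipocyte markers ran alongside it, at 7501, 684 and 230 CPM in BP tumors and 57.3, 3.99 and 148 CPM in PBS tumors, and their part in it was not tested.

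**Figure D2:**
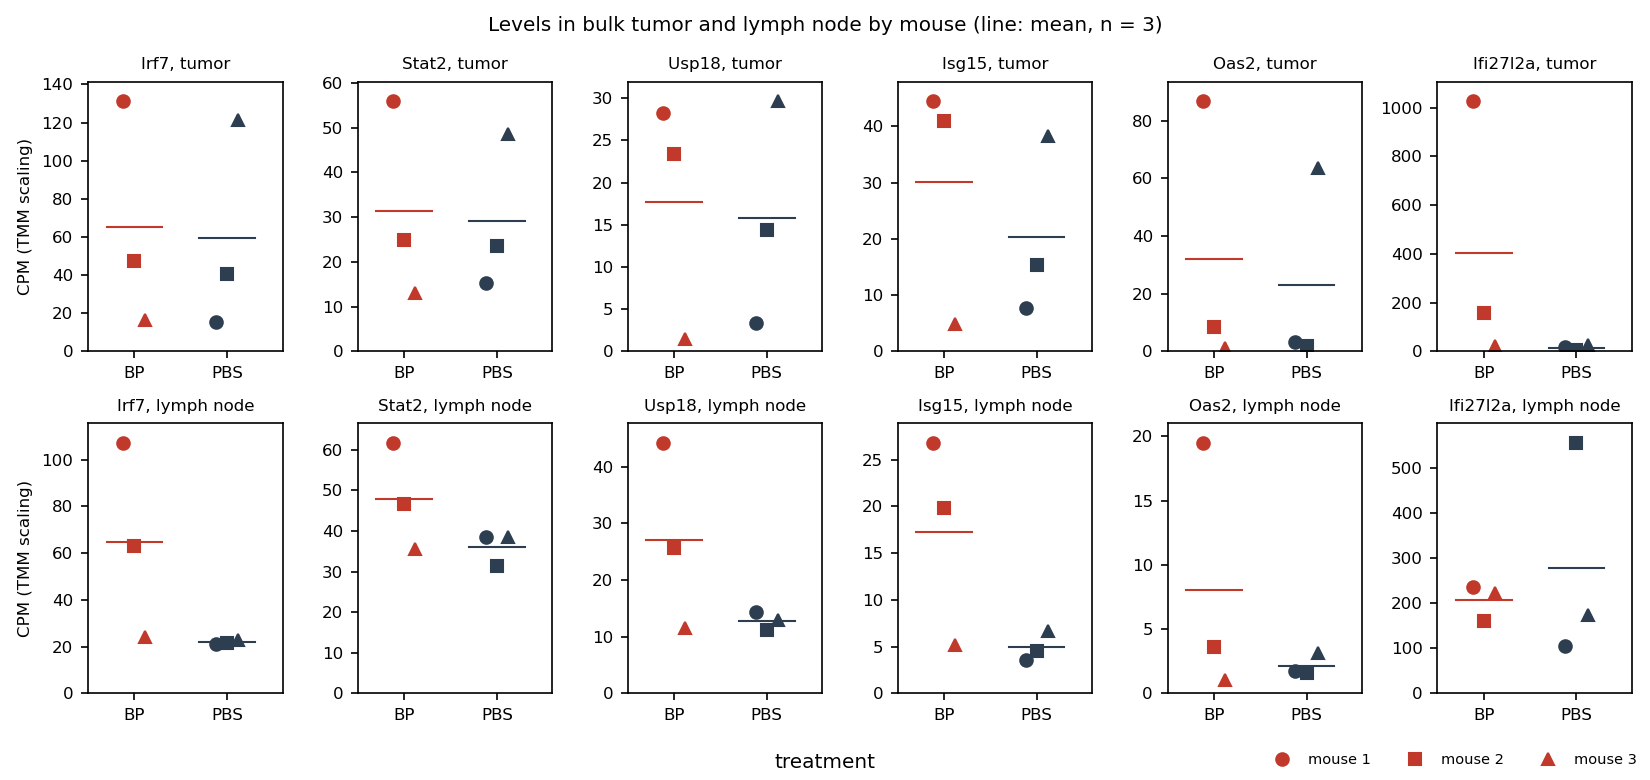
CPM (TMM scaling) of 6 interferon-stimulated genes in bulk tumor (top) and bulk lymph node (bottom), one point per mouse, with lines at the means of 3. In tumor the BP and PBS points overlap, as for Irf7 at 16.6 to 131 CPM in BP mice and 15.5 to 122 CPM in PBS mice, whereas in lymph node BP mice 1 and 2 lie above the PBS mice in all but Ifi27l2a.

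In spleen, liver, bone marrow and lung the medians of the members stayed near 0, at 0.11, 0.03, 0.18 and 0.08 on the log2 scale.
In spleen Isg15 had 14.2, 49.6 and 19.4 CPM in BP mice, against 9.26, 20.9 and 36.4 CPM in PBS mice. Oas3 had the largest fold change there, with 6.67, 30.1 and 6.53 CPM in BP mice and 4.88, 8.30 and 10.9 CPM in PBS mice (0.85 ± 0.62), which was -0.28 without BP mouse 2. Isg15 (0.32 ± 0.57) was -0.40 without that mouse. Ifit1, Ifi27l2a, Lgals3bp and Oas1a followed at 0.64 ± 0.57, 0.62 ± 0.40, 0.33 ± 0.21 and 0.32 ± 0.35. Rsad2 had 54.7, 326 and 117 CPM in BP mice and 79.5, 208 and 237 CPM in PBS mice. Erythroid markers ran from 24300 to 100250 CPM in BP spleens, with mouse 2 highest, and from 22326 to 106905 CPM in PBS spleens, with mouse 3 highest. The same mice were highest for Rsad2, and the part of these cells in it was not tested.
In liver Usp18 had 4.69, 4.63 and 2.48 CPM in BP mice, against 3.03, 2.18 and 11.1 CPM in PBS mice (-0.50 ± 0.56). Mouse 3 of the PBS group was far above the others, and without it Usp18 had 0.60 and the median of the members in liver was 0.51. Trim30a, Ifit2 and Rsad2 had 0.53 ± 0.34, 0.47 ± 0.38 and 0.35 ± 0.35, and Zbp1 and Ifit3 had -0.42 ± 0.40 and -0.29 ± 0.34, which without PBS mouse 3 were 0.013 and 0.23. Oas2 was the 1 liver member whose groups did not overlap, where 8.36% of all genes had groups apart. It had 1.44, 1.81 and 1.76 CPM in BP mice and 0.551, 0.546 and 0.911 CPM in PBS mice (1.28 ± 0.36, unadjusted p = 0.00599, adjusted p = 0.999).
In bone marrow Irf7 was the only member with groups apart, at 25.5, 30.4 and 25.2 CPM in BP mice and 20.4, 23.6 and 21.6 CPM in PBS mice (0.31 ± 0.11, adjusted p = 1.00), where 5.92% of all genes had groups apart. The largest marrow fold changes were those of Usp18, Oas1a, Oas3, Isg15, Oas2 and Rtp4, at 0.45 to 0.60. Oas2 was at -0.017 without BP mouse 2. In lung Oasl1 had all BP mice above the PBS mice and Mx1 all BP mice below them, where 4.42% of all genes had groups apart. Spleen and tumor had 0 such members, where 4.48% and 10.8% of all genes had groups apart. Lung Ifi27l2a had 58.4, 60.3 and 24.2 CPM in BP mice and 16.2, 37.2 and 34.7 CPM in PBS mice (0.71 ± 0.41). Ifit3b, Isg15 and Isg20 had 0.31 ± 0.24, 0.28 ± 0.42 and 0.23 ± 0.29 in lung, and Stat2 and Gbp3 had -0.27 ± 0.23 and -0.26 ± 0.32. No member differed in its BP effect between organs by the interaction test over 36 bulk libraries, where 0.0913% of all genes were called (edgeR), while 1 member had an unadjusted p under 0.05 and DESeq2 called 1, Ifi27l2a.

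The members were high or low together within a mouse. Among the 3 BP mice, mouse 3 had the lowest value of 34 of 35 members in tumor, 33 of 35 in lymph node, 22 of 35 in spleen, 25 of 34 in liver, 28 of 34 in bone marrow and 15 of 35 in lung. Over all genes tested, mouse 3 was the lowest of the BP mice in 33.6% of genes in tumor, 29.9% in lymph node, 31.2% in spleen, 35.2% in liver, 35.4% in bone marrow and 34.6% in lung. The lung was thus the only organ in which its share of members was near that of all genes.
Among the PBS mice, mouse 3 had the highest value of 34 of 35 members in tumor, 31 of 35 in spleen, 32 of 34 in liver, 22 of 34 in bone marrow, 21 of 35 in lung and 17 of 35 in lymph node. Over all genes this mouse was highest in 29.1% in tumor, 33.7% in spleen, 36.02% in liver, 38.0% in bone marrow, 21.1% in lung and 27.4% in lymph node. In lymph node its share of members was the lowest of the 6 organs.
As the median over members of the log2 deviation from the mean of the organ, tumors of BP mice 1, 2 and 3 stood at 1.17, 0.39 and -1.13 and tumors of PBS mice at -1.06, -0.16 and 1.01. Lymph nodes of BP mice stood at 0.97, 0.52 and -0.53, and those of PBS mice at -0.41, -0.54 and -0.20.
In a separate list of 34 further interferon-stimulated genes, BP mouse 3 was lowest in 23 of 32 tested in tumor, 28 of 32 in lymph node, 25 of 30 in liver and 24 of 33 in bone marrow, but in 14 of 33 in spleen and 11 of 33 in lung. Among interferon gamma targets BP mouse 3 was lowest in 21 of 21 in tumor, 23 of 23 in lymph node, 21 of 23 in liver, 11 of 22 in spleen, 10 of 20 in bone marrow and 14 of 23 in lung. Nanoparticle-associated cells of that mouse were lowest in 30 of 35 members in tumor (38.0% of all genes) and 28 of 35 in liver (33.1%), but in 14 of 35 in spleen (24.2%) and 18 of 34 in bone marrow (34.2%).

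**Figure D3:**
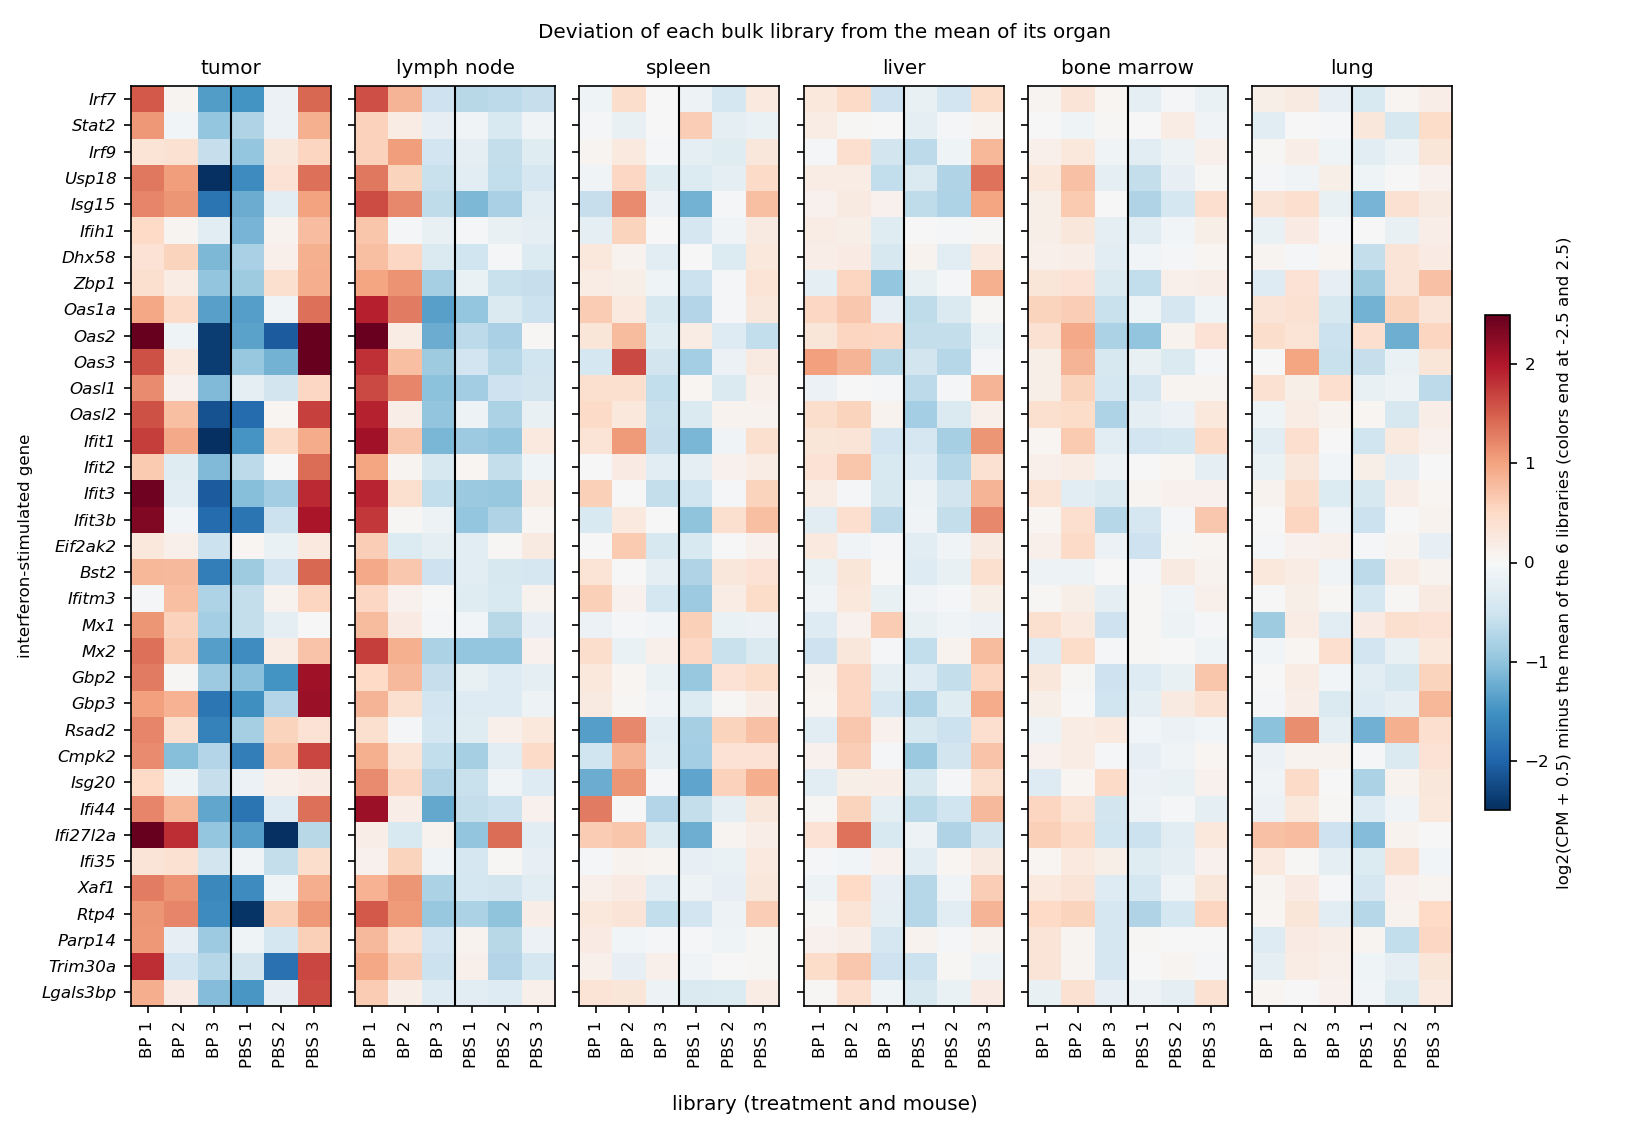
Deviation of each bulk library (columns, BP mice left of PBS mice in each organ) from the mean of the 6 libraries of its organ, in log2 units of CPM plus 0.5, for the interferon-stimulated genes (rows). Whole columns share a color: BP mouse 1 and PBS mouse 3 are red and BP mouse 3 and PBS mouse 1 blue in tumor, and the lymph nodes of BP mice 1 and 2 are red.

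The second comparison sets cells that held nanoparticles beside the bulk organ of the same BP mice. In liver most members were higher in the nanoparticle-associated cells, in spleen 12 were lower and 2 higher, and in tumor none passed the test.
In liver 24 of 35 members rose and 0 fell in nanoparticle-associated cells (edgeR, adjusted p under 0.05), where 37.3% of all genes were called higher and 37.5% lower. The median log2 fold change of the members was 1.38, against 0.01 over all genes.
Oasl2, a synthetase-like antiviral protein, had 21.2, 23.0 and 17.4 CPM in nanoparticle-associated liver cells of mice 1, 2 and 3, against 2.43, 2.69 and 1.83 CPM in bulk liver (log2 fold change 3.15 ± 0.20, SE, n = 3 each, adjusted p = 9.75e-07). Ifit2 had 38.0, 38.1 and 37.7 CPM in these cells, against 3.93, 5.02 and 2.20 CPM in bulk liver (3.35 ± 0.24, adjusted p = 2.4e-06). Rsad2 had 35.6, 38.7 and 34.0 CPM against 2.95, 6.04 and 3.96 CPM (3.07 ± 0.23). The 3 nanoparticle-associated values of each gene were close together and all far above bulk liver.
Trim30a, a restraint on Toll-like receptor signaling in mice, had 32.4, 26.0 and 30.2 CPM in nanoparticle-associated cells and 4.85, 5.68 and 2.26 CPM in bulk liver (2.79 ± 0.28, adjusted p = 1.78e-05). Cmpk2, a mitochondrial nucleotide kinase encoded next to Rsad2, had 13.5, 10.95 and 10.2 CPM against 2.54, 3.77 and 2.26 CPM (2.02 ± 0.23). Rsad2 and Cmpk2 are neighbours on chromosome 12 (GRCm38 chr12:26442746-26456452, minus strand, and chr12:26469204-26479837, plus strand) and both rose. Lgals3bp, a secreted glycoprotein, had 147, 113 and 105.97 CPM against 32.9, 43.6 and 30.01 CPM (1.78 ± 0.19). Parp14 had 84.2, 59.8 and 85.4 CPM against 25.1, 25.9 and 17.3 CPM (1.75 ± 0.20), and Isg15 had 14.7, 22.3 and 18.1 CPM against 5.49, 5.98 and 5.49 CPM (1.70 ± 0.18). In each of these the groups were apart.
By role, all 4 Ifit genes, both Mx genes, both Gbp genes and all 3 of Rsad2, Cmpk2 and Isg20 rose in liver, as did 4 of the 5 Oas genes, Oas3 being the exception, although with library totals only Rsad2, Cmpk2 and Isg20 stayed complete as a group. None of the sensors Ifih1, Dhx58 and Zbp1 passed the test, nor did the membrane proteins Bst2 and Ifitm3, the kinase Eif2ak2, Ifi35 or Ifi27l2a. The regulators were split. Irf7 had 27.7, 33.5 and 16.9 CPM in nanoparticle-associated cells, against 11.9, 14.0 and 6.77 CPM in bulk liver (1.27 ± 0.30, adjusted p = 0.00387). Stat2 had 32.0, 28.1 and 26.1 CPM against 29.2, 26.2 and 25.8 CPM (0.09 ± 0.13, adjusted p = 0.534) and Usp18 had 4.22, 3.505 and 3.83 CPM against 3.58, 3.53 and 1.89 CPM (0.36 ± 0.29, adjusted p = 0.284).
Scaling mattered most in this organ. With library totals in place of TMM the median of all genes fell to -0.80, a shift of -0.81, and the members split into 16 higher and 7 lower with a median of 0.57, where 20.2% of all genes were called higher and 52% lower. Irf7, Irf9, Oas2, Oasl1, Ifit3, Mx1, Gbp3 and Rtp4 lost their calls, and the 7 lower were Zbp1, Ifih1, Ifitm3, Ifi35, Bst2, Eif2ak2 and Stat2. Summed hepatocyte markers were 9718 to 19613 CPM in nanoparticle-associated cells and 78587 to 91502 CPM in bulk liver. Endothelial markers were 742 to 1714 CPM against 108 to 156 CPM, and macrophage markers 583 to 1854 CPM against 586 to 819 CPM. Plasmacytoid dendritic cell markers were 14.7 to 24.4 CPM against 1.64 to 3.39 CPM, but this was not the only immune cell list that was higher. T cell markers were 44.4 to 64.8 CPM against 6.40 to 19.4 CPM, and natural killer cell markers 12.2 to 24.6 CPM against 1.95 to 4.80 CPM. Neutrophil markers were 61.7 to 172 CPM against 25.1 to 37.5 CPM, and B cell markers were higher too. Monocyte markers went the other way, at 303 to 539 CPM against 1249 to 1814 CPM. The part of cell makeup in the values of the members was not tested.

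In spleen 2 of 35 members rose and 12 fell in nanoparticle-associated cells, where 20.2% of all genes were called higher and 22% lower. The members' median log2 fold change was -0.77, against -0.04 over all genes. With library totals, which shifted the median of all genes by -0.17, it was 0 higher and 15 lower, where 13.7% of all genes were called higher and 25.1% lower. With the mouse as a replicate block it was 2 higher and 19 lower, where 26.8% of all genes were called higher and 27.2% lower, and Usp18, Oas1a, Bst2, Gbp2, Gbp3, Rtp4 and Lgals3bp were the 7 added.
Trim30a, which had risen in liver, had 21.6, 15.8 and 18.4 CPM in nanoparticle-associated spleen cells, against 64.4, 50.9 and 65.0 CPM in bulk spleen (-1.69 ± 0.17, adjusted p = 0.00086). Xaf1, a partner of the apoptosis inhibitor XIAP, had 3.72, 3.94 and 3.47 CPM against 12.6, 13.3 and 9.44 CPM (-1.66 ± 0.21, adjusted p = 0.00169). Zbp1, the sensor of Z-form nucleic acids, had 8.59, 7.89 and 6.87 CPM against 21.2, 20.6 and 17.2 CPM (-1.34 ± 0.17). The 3 genes were lower in the nanoparticle-associated cells of every mouse.
Ifit2 had 5.87, 5.97 and 5.61 CPM in nanoparticle-associated cells, against 13.4, 15.5 and 11.1 CPM in bulk spleen (-1.19 ± 0.19). Ifit3 had 1.93, 0.506 and 0.665 CPM against 10.8, 6.98 and 4.51 CPM (-2.80 ± 0.57), and Ifi27l2a had 18.4, 13.9 and 9.90 CPM against 75.4, 78.2 and 37.5 CPM (-2.18 ± 0.35). Stat2 had 41.9, 29.2 and 38.9 CPM against 66.0, 58.7 and 66.6 CPM (-0.80 ± 0.16). The others that fell were Dhx58, Ifit3b, Eif2ak2, Ifi35 and Parp14. Reads of Ifit3 and Ifit3b, near-copies side by side on chromosome 19, could be divided wrongly between them.
Irf9 and Oasl1 rose. Irf9, the DNA-binding part of the response complex, had 110.1, 134 and 106.4 CPM in nanoparticle-associated cells, against 79.1, 88.9 and 73.2 CPM in bulk spleen (0.54 ± 0.14, adjusted p = 0.0195). Oasl1, which holds back Irf7 translation in mice, had 13.3, 5.16 and 10.2 CPM against 4.20, 4.19 and 1.85 CPM (1.495 ± 0.45, adjusted p = 0.0347). Leaving out libraries 1 at a time kept Oasl1 under 0.05 only without nanoparticle-associated mouse 2, the other 5 fits giving adjusted p up to 0.0953. Irf9 lost its call without bulk mouse 1 (0.0593) or bulk mouse 3 (0.0691), and Parp14 (-0.77 ± 0.17) lost it without nanoparticle-associated mouse 3 (0.0513). The count of members called was 8 without nanoparticle-associated mouse 3 and 9 without bulk mouse 2. Calls over all genes fell too, from 3036 higher and 3304 lower with all 6 libraries. They were 2342 higher and 2129 lower without nanoparticle-associated mouse 3, and 2366 higher and 2426 lower without bulk mouse 2.
Summed B cell markers were 1772 to 2551 CPM in nanoparticle-associated spleen cells and 3921 to 6046 CPM in bulk spleen, and macrophage markers 337 to 1000.3 CPM against 1134 to 1708 CPM. Neutrophil markers were 2228 to 4926 CPM against 978 to 3134 CPM and monocyte markers 532 to 1027 CPM against 151 to 281 CPM. The part of these cells in the spleen values was not tested.

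In bone marrow 1 of 34 members rose and 2 fell in nanoparticle-associated cells, where 4.8% of all genes were called higher and 2.9% lower. With the mouse as a replicate block the counts were 1 higher and 8 lower, where 11.7% of all genes were called higher and 8.29% lower.
Gbp3, a guanylate-binding GTPase, had 36.6, 30.4 and 27.2 CPM in nanoparticle-associated marrow cells, against 16.4, 14.7 and 10.3 CPM in bulk marrow (1.18 ± 0.20, adjusted p = 0.0117). Stat2 had 22.9, 20.2 and 15.4 CPM against 37.6, 34.7 and 37.8 CPM (-0.91 ± 0.15, adjusted p = 0.0127). Trim30a had 21.1, 13.2 and 12.7 CPM against 40.1, 33.6 and 23.7 CPM (-1.05 ± 0.25, adjusted p = 0.0446). In all 3 the groups were apart, though Trim30a only narrowly. With the mouse as a replicate block (edgeR) the adjusted p was 0.00200 for Gbp3, 0.00737 for Stat2 and 0.00378 for Trim30a.
Without the block, some fits that left out 1 library lost these calls, and fewer of all genes were called in them too. Over all genes the fit of 6 libraries called 651 higher and 393 lower. Without bulk mouse 2, Gbp3 had an adjusted p of 0.0544 and 0 members were called, where all genes had 222 higher and 67 lower. Without bulk mouse 1 or nanoparticle-associated mouse 2, 1 member was called each time. All genes then had 260 higher and 60 lower, and 300 higher and 67 lower. Stat2 stayed under 0.05 only without nanoparticle-associated mouse 1 or 3, and otherwise reached up to 0.0609. Trim30a stayed under it only without nanoparticle-associated mouse 1 or bulk mouse 3, and otherwise reached up to 0.151. Parp14 had 32.5, 20.8 and 16.6 CPM in nanoparticle-associated cells, against 50.01, 42.1 and 29.8 CPM in bulk marrow (-0.80 ± 0.27, adjusted p = 0.112, or 0.00469 with the replicate block). Ifit2 had 12.5, 15.8 and 10.8 CPM against 21.1, 22.1 and 17.7 CPM (-0.64 ± 0.18, adjusted p = 0.0646, or 0.0154 with the block). Usp18 had 2.85, 5.86 and 3.80 CPM against 6.82, 9.53 and 4.68 CPM (-0.76 ± 0.34, adjusted p = 0.214). Irf7 had 25.2, 27.2 and 28.7 CPM against 25.3, 30.2 and 24.9 CPM (0.01 ± 0.12). Monocyte markers summed to 1454 to 1816 CPM in nanoparticle-associated cells and 848 to 1296 CPM in bulk marrow, and their part was not tested.

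In tumor 0 of 35 members passed the test, where 5.87% of all genes were called higher and 3.17% lower. At an unadjusted p under 0.05 there were 2 members, against 31.8% of all genes, and DESeq2 called 2. The log2 fold change was below 0 in 30 of the 35 and above 0 in 5, with a median of -0.49. Over all genes 48.5% were above 0 and the median was -0.03.
Trim30a had 2.95, 2.25 and 0.819 CPM in nanoparticle-associated tumor cells, against 34.7, 6.53 and 5.66 CPM in bulk tumor (-2.95 ± 0.87, adjusted p = 0.0734). Ifi27l2a had 14.9, 23.6 and 3.34 CPM against 975, 151 and 21.8 CPM (-4.78 ± 1.42, adjusted p = 0.0751). Trim30a was lower in every mouse and its groups were apart, while those of Ifi27l2a overlapped. Without bulk mouse 3 both passed, at 0.0487 for Trim30a and 0.0354 for Ifi27l2a. Irf7 had 35.6, 49.1 and 19.3 CPM in nanoparticle-associated cells and 125, 44.9 and 16.3 CPM in bulk tumor (-0.84 ± 0.70, adjusted p = 0.448). Rsad2 was alike in the nanoparticle-associated cells of the 3 mice, at 23.8, 23.9 and 23.9 CPM, against 16.1, 8.91 and 1.78 CPM in bulk tumor (1.43 ± 0.67, adjusted p = 0.193). Ifit3, Ifit3b, Oas2 and Cmpk2 had fold changes of -2.28 ± 1.14, -2.31 ± 1.15, -2.14 ± 1.32 and -1.46 ± 0.62, at adjusted p of 0.16 to 0.307, and that of Oas2 was 0.52 without bulk mouse 1. With the mouse as a replicate block (edgeR) these genes had -1.29 ± 0.84, -1.55 ± 0.72, -0.63 ± 1.01 and -1.07 ± 0.64. Trim30a then had -2.64 ± 0.50 (adjusted p = 0.0512) and Ifi27l2a -3.73 ± 0.80 (adjusted p = 0.0589). In that fit 0 of 35 members passed, where 3.07% of all genes were called higher and 1.2% lower. Adipocyte markers were 13.1 to 21.2 CPM in nanoparticle-associated cells and 230 to 7501 CPM in bulk tumor, macrophage markers 202 to 231 CPM against 471 to 671 CPM, and mammary epithelium markers 14236 to 15922 CPM against 10018 to 18965 CPM. Their part in the tumor values was not tested.

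**Figure D4:**
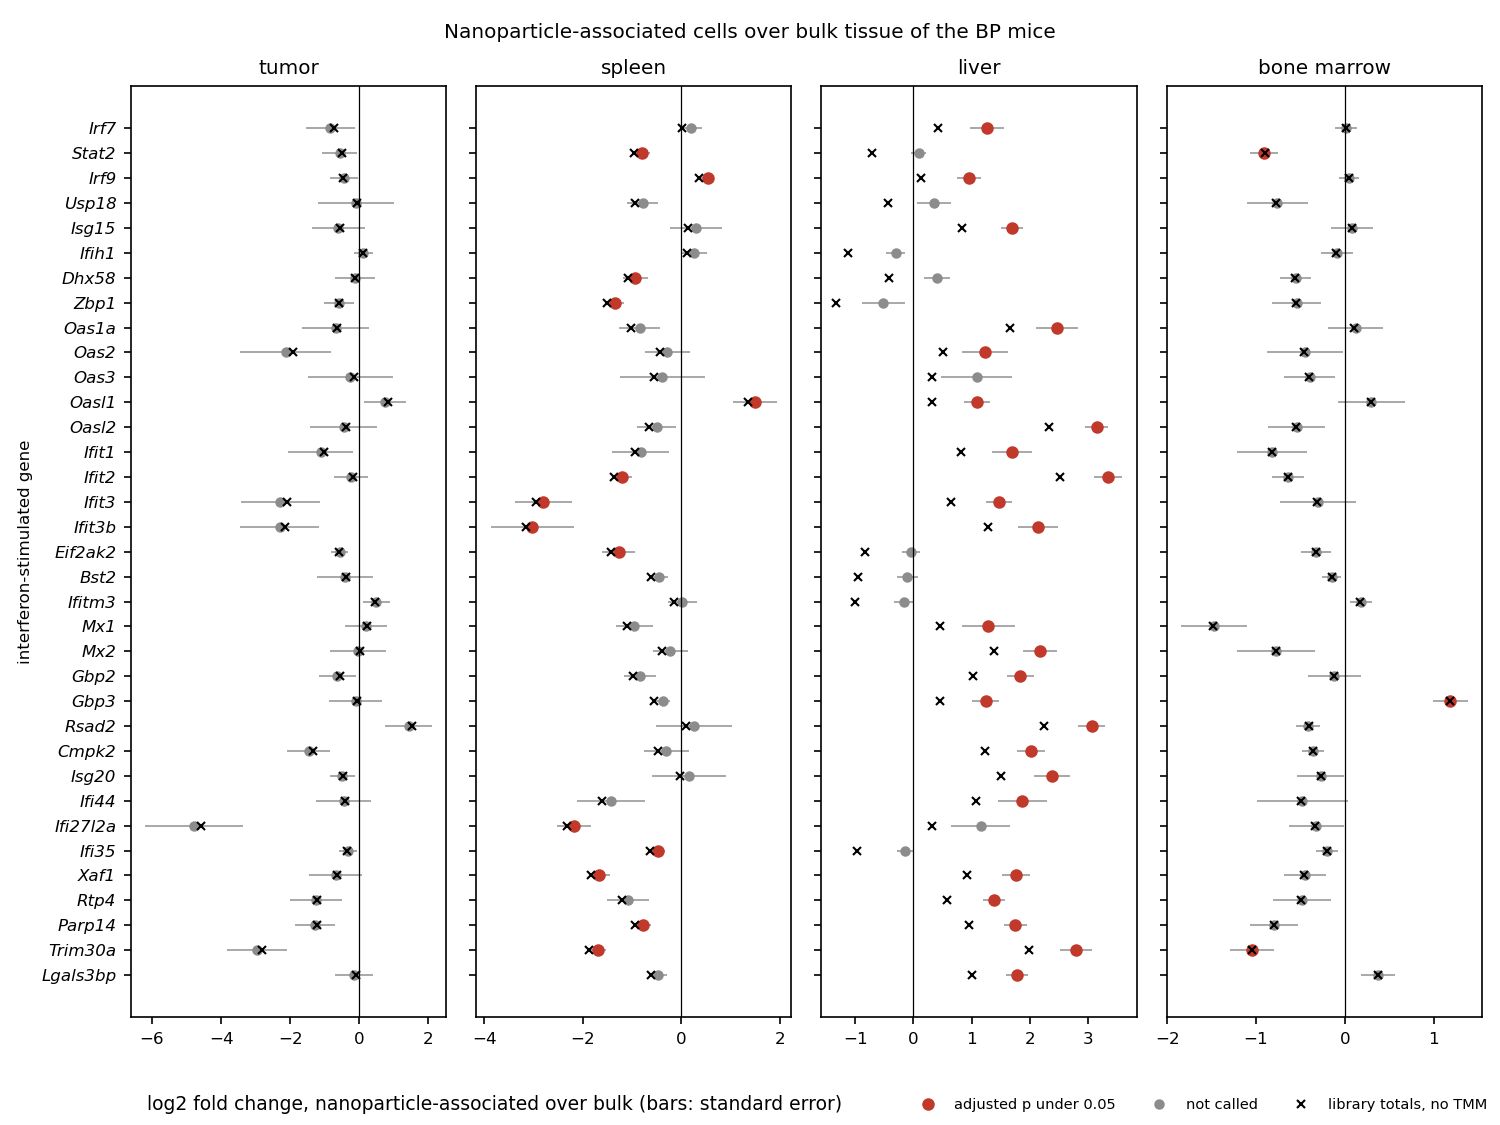
Log2 fold change of each interferon-stimulated gene (rows), nanoparticle-associated cells over bulk tissue of the BP mice, in 4 organs, with standard errors. Red points passed an adjusted p of 0.05, gray points did not, and crosses give the value with library totals. In liver 24 red points lie right of 0, in spleen 12 lie left of it and 2 right, and in tumor none is red.

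In the fit of all mice without a mouse block, the share of members that differed between organs was no larger than that of all genes. Over the 24 libraries of tumor, spleen, liver and bone marrow of BP mice, the nanoparticle-associated effect differed between organs in 19 of 35 members, where 58.3% of all genes did. Leaving out all libraries of 1 mouse gave 9 members without mouse 1 (40.5% of all genes), 8 without mouse 2 (39.9%) and 19 without mouse 3 (35.4%). The members' share thus lay below that of all genes without mouse 1 or 2. It lay above that of all genes without mouse 3, and also with the mouse as a replicate block. Ifit2 differed most clearly (adjusted p = 8.47e-07), at log2 fold changes of 3.35 in liver, -1.19 in spleen, -0.64 in bone marrow and -0.25 in tumor. Trim30a (adjusted p = 2.94e-05) had 2.79 in liver, -1.69 in spleen, -1.05 in bone marrow and -2.95 in tumor, and was the only member called in 3 organs. Ifit2, Ifit3, Ifit3b, Xaf1, Parp14 and Trim30a all rose in liver and fell in spleen, which is 6 of the 24 that rose in liver and 6 of the 12 that fell in spleen. Over the 12531 genes tested in both organs, 841 did so, which is 17.4% of those higher in liver and 30% of those lower in spleen. Irf9 and Oasl1 rose in both, but with library totals neither was called in either organ, at adjusted p of 0.719 and 0.418 in liver and 0.0526 and 0.0579 in spleen.

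The lymph node gave 1 nanoparticle-associated library, set beside the bulk lymph node of the same mouse without a test. All 35 members had enough counts. More than 2-fold higher in the nanoparticle-associated cells were 4 members, where 18.4% of all genes were, and more than 2-fold lower were 4, where 14.1% of all genes were. On library totals Rsad2 had 16.0 CPM in nanoparticle-associated cells and 4.06 CPM in the bulk node. Oasl1 had 21.9 against 6.09 CPM, Oasl2 20.2 against 7.90 CPM and Isg15 41.9 against 18.9 CPM. The 4 lower ones were Xaf1 with 8.42 CPM against 31.5 CPM, Ifi27l2a with 45.3 against 154 CPM, Zbp1 with 27.7 against 74.0 CPM and Oas3 with 5.09 against 10.9 CPM. The other 27 lay within 2-fold, Irf7 among them at 87.9 CPM in nanoparticle-associated cells and 60.3 CPM in the bulk node.

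Apart from Ifng, the interferon genes themselves were nearly silent. Of 21 ligand genes 11 had no count in any of the 49 libraries, and only Ifnb1 and Ifng exceeded 10 counts in a library. Ifnb1, the first type I interferon made by most cells, had 29, 11 and 29 counts in nanoparticle-associated tumor cells of mice 1, 2 and 3, against 1, 0 and 0 counts in bulk tumor. That is 1.78, 0.788 and 1.89 CPM on library totals, and the difference passed the test (adjusted p = 0.0284). Without 1 library the adjusted p ran from 0.039 to 0.138 and passed only without bulk mouse 3. In spleen it had 8, 3 and 15 counts in nanoparticle-associated cells and 0 counts in all 3 bulk libraries, and in lymph node 7 counts against 0 counts in the same mouse. In liver it had 4, 1 and 0 counts and in bone marrow 0, 1 and 0 counts in nanoparticle-associated cells, against 0 counts in bulk BP libraries. Over the whole series Ifnb1 was counted in 10 of 13 nanoparticle-associated libraries and 3 of 36 bulk libraries, where its highest count was 2. Its highest CPM was in nanoparticle-associated tumor cells.
Ifng, the type II interferon of T and natural killer cells, which uses another receptor but shares many target genes, was followed after its values were seen. It had 10.98, 49.2 and 21.4 CPM in nanoparticle-associated liver cells, from 169, 946 and 234 counts, against 1, 2 and 0 counts in bulk liver (adjusted p = 5.86e-05). In spleen it had 61, 56 and 116 counts in nanoparticle-associated cells and 20, 6 and 12 counts in bulk (log2 fold change 2.67 ± 0.51, adjusted p = 0.00696). In bone marrow it had 23, 32 and 18 counts against 1, 8 and 0 counts (adjusted p = 0.0433), a call kept without nanoparticle-associated mouse 1 or bulk mouse 2 and lost without each of the others, at up to 0.151. Bulk lymph nodes had 62, 17 and 8 counts in BP mice and 6, 7 and 7 counts in PBS mice, and within the BP group Irf7 and Isg15 had the same order of mice. On library totals that is 4.26, 1.82 and 0.564 CPM in BP mice and 0.454, 0.571 and 0.607 CPM in PBS mice. BP mouse 3 thus lay within the PBS values and the groups overlapped. T cell markers summed to 44.4 to 64.8 CPM in nanoparticle-associated liver cells and 6.40 to 19.4 CPM in bulk liver, and their part in the Ifng values was not tested.

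**Figure D5:**
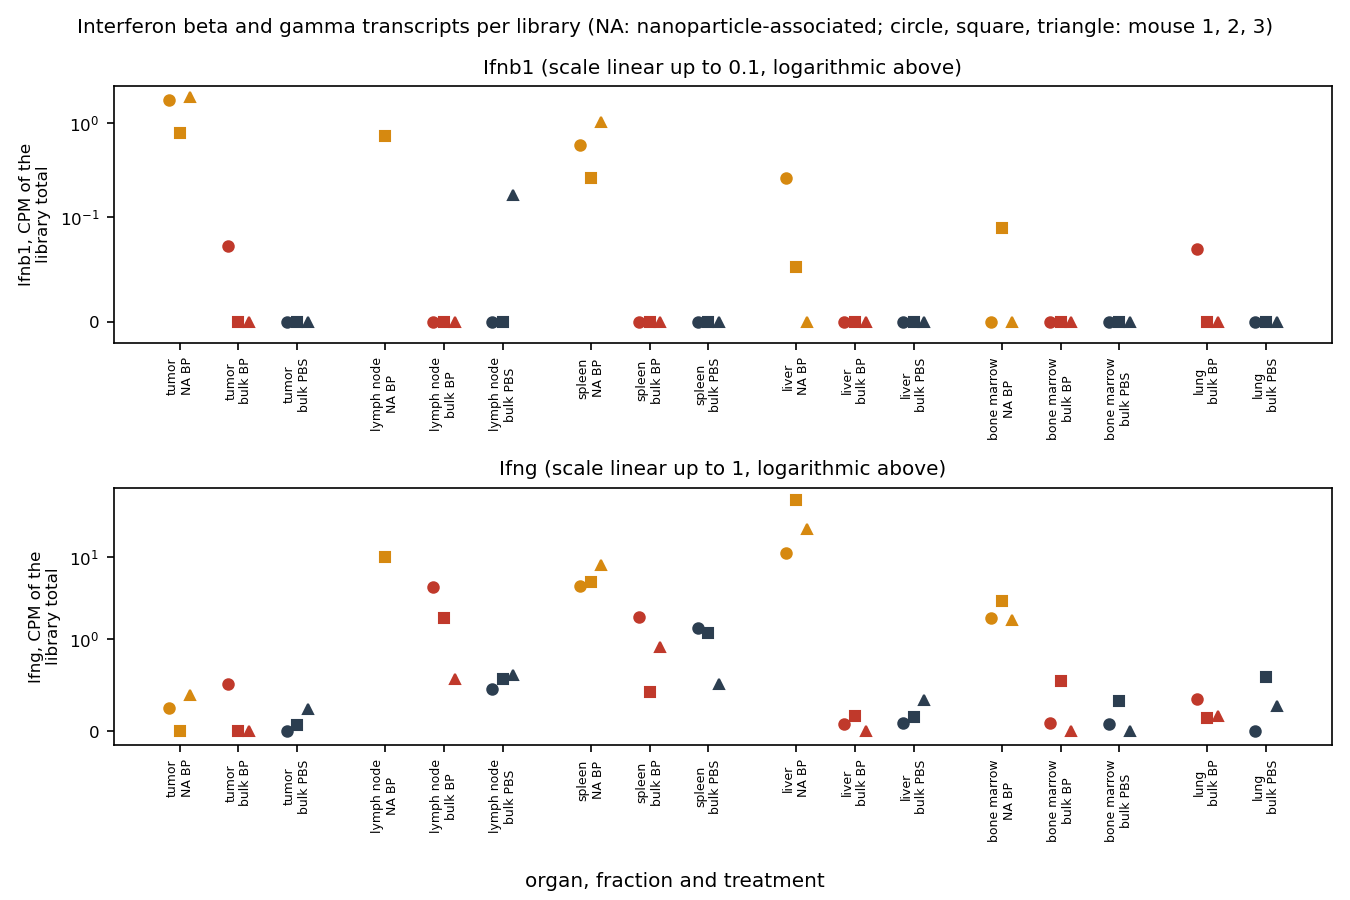
CPM of library totals of Ifnb1 (top, scale linear up to 0.1 and logarithmic above) and Ifng (bottom, linear up to 1 and logarithmic above), one point per library, with nanoparticle-associated cells left of bulk BP and bulk PBS in each organ. Ifnb1 points above 0.5 CPM come only from nanoparticle-associated libraries of tumor, lymph node and spleen, and Ifng is highest in nanoparticle-associated liver cells at up to 49.2 CPM.

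The other genes of the pathway were read from lists. They held 21 ligands, 9 receptors and signal transducers, 13 sensors and adaptors, 8 inhibitors, 24 interferon gamma targets and 34 further interferon-stimulated genes. Between BP and PBS mice no gene of any list passed the edgeR test in any organ. At an unadjusted p under 0.05 there were 6 genes in lymph node, 3 in liver, 1 in bone marrow and 0 in tumor, spleen and lung. Of all genes, 3.61%, 3.56%, 1.32%, 5.96%, 0.711% and 0.872% reached that level in these organs, in the same order. Between nanoparticle-associated cells and bulk liver, where 37.3% of all genes were called higher and 37.5% lower, the receptors and signal transducers had 6 higher and 0 lower of 8 tested, the sensors and adaptors 9 higher and 2 lower of 13, the inhibitors 6 and 0 of 8, interferon gamma targets 16 and 0 of 23, and further interferon-stimulated genes 24 and 4 of 32. Socs3, an inhibitor of cytokine receptors, averaged 521 ± 143 CPM in nanoparticle-associated liver cells and 4.60 ± 2.04 CPM in bulk liver (SD, n = 3 each, log2 fold change 6.82 ± 0.38, edgeR adjusted p = 6.01e-07). Socs1, the main brake on Jak kinases, averaged 16.8 ± 3.02 CPM against 0.576 ± 0.13 CPM (4.85 ± 0.25). Tmem173, the DNA sensing adaptor STING, averaged 25.5 ± 0.289 CPM against 2.30 ± 0.758 CPM (3.47 ± 0.21). Irf1, a factor driven by interferon gamma, averaged 244 ± 19.8 CPM against 38.1 ± 5.85 CPM (2.68 ± 0.16), and Ly6a and Ifi204, further interferon-stimulated genes, rose by 3.44 and 3.43 on the log2 scale. Called inhibitors and called interferon gamma targets were all higher in these libraries. These list counts use TMM scaling, and their counts with library totals are not given here. The median log2 fold changes of the 5 lists were 0.50, 0.86, 1.19, 0.95 and 1.38 in the order above. Library totals shifted the median of all genes in liver by -0.81, so the list counts may depend on the scaling.
In spleen, where 20.2% of all genes were called higher and 22% lower, the receptors and signal transducers had 6 higher and 2 lower of 9 tested, the sensors 2 and 3 of 13, the inhibitors 3 and 2 of 8, interferon gamma targets 3 and 7 of 23, and further interferon-stimulated genes 3 and 17 of 32. Ifnar1, a chain of the type I receptor, averaged 189 ± 10.3 CPM in nanoparticle-associated cells and 67.3 ± 6.40 CPM in bulk spleen (1.49 ± 0.12, adjusted p = 0.00048). Ifngr2, a chain of the interferon gamma receptor, averaged 186 ± 11.9 CPM against 71.4 ± 5.71 CPM (1.38 ± 0.12), and Socs3 293 ± 88.1 CPM against 27.1 ± 5.61 CPM (3.43 ± 0.29). Phf11b, Samd9l and Epsti1, further interferon-stimulated genes, fell by 2.17, 1.90 and 1.29 on the log2 scale. Most called genes of the receptor list were higher and most called genes of the further list were lower.
In bone marrow, where 4.8% of all genes were called higher and 2.9% lower, the receptors had 0 called of 9 tested, the sensors 1 higher and 1 lower of 13, the inhibitors 1 and 0 of 8, interferon gamma targets 2 and 2 of 21, and further interferon-stimulated genes 1 and 4 of 32. Socs3 averaged 37.3 ± 3.74 CPM in nanoparticle-associated cells and 10.4 ± 3.18 CPM in bulk marrow (1.83 ± 0.21, adjusted p = 0.00263). Cxcl10, a T cell attractant, averaged 4.62 ± 1.45 CPM against 0.585 ± 0.157 CPM (2.97 ± 0.36, adjusted p = 0.00311). Gbp5 rose by 1.44 on the log2 scale, and Trim21, Mavs and Slfn8 fell by 1.74, 0.69 and 1.49. With 1 library left out, these 4 kept their calls without nanoparticle-associated mouse 1 or 3, Trim21 and Slfn8 also without bulk mouse 3 and Mavs without bulk mouse 2, and lost them otherwise, at adjusted p up to 0.0761.
In tumor Socs3 averaged 87.5 ± 5.66 CPM in nanoparticle-associated cells and 16.0 ± 7.57 CPM in bulk tumor (2.45 ± 0.34, adjusted p = 0.0177, or up to 0.107 with 1 library left out, lost without nanoparticle-associated mouse 1 or 2). Where 5.87% of all genes were called higher and 3.17% lower, the sensor list had 0 higher and 1 lower of 13, Irf5, the inhibitors 1 and 0 of 8, interferon gamma targets 0 and 1 of 21, Ciita, and further interferon-stimulated genes 1 and 2 of 32, with 0 of 9 receptors called. Ciita, the activator of class II antigen presentation, averaged 1.55 ± 0.425 CPM against 10.5 ± 3.86 CPM (-2.75 ± 0.44), Irf5 3.96 ± 0.526 CPM against 12.9 ± 3.87 CPM (-1.70 ± 0.35) and Trim21 6.24 ± 2.13 CPM against 20.4 ± 5.83 CPM (-1.71 ± 0.37). Daxx averaged 38.1 ± 1.80 CPM against 22.7 ± 0.52 CPM (0.75 ± 0.18). With 1 library left out, Ciita stayed under 0.05 only without bulk mouse 1 or 3, Irf5 and Trim21 only without bulk mouse 3, and Daxx in 0 of 6 fits, with adjusted p up to 0.203. With the replicate block Irf5 and Daxx were not called. Socs3 was the 1 pathway gene named in all 4 organs and rose in each.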

How the data were processed

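RNA of bulk organs and of nanoparticle-associated cells was sequenced, 1 library per organ and mouse. The deposited values are expected counts per gene; per the submitters' processing notes, the tools were STAR 2.7.9a, RSEM 1.3.1, cutadapt 3.5 and FastQC 0.11.9 on build mm10. The gene annotation release and the strand setting are not given in the sources used here, so overlapping and antisense genes, and the near-copies Ifit3 and Ifit3b, Oas1a and its relatives, the Trim30 family and Gbp2 and Gbp3, may share reads. Between 4.64 and 7.92% of the values of a library, zeros included, were not whole, and the expected counts were rounded before testing. No column was without a sample.

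Groups are separate mice, 3 per treatment, per the labels. Each organ was tested on its 6 libraries with edgeR 4.0.16 (quasi-likelihood test, two-sided, TMM scaling, genes kept by filterByExpr at its minimum of 10 counts, Benjamini-Hochberg adjustment over all genes tested, adjusted p under 0.05) in R 4.3.3, with limma 3.58.1. Summed marker CPM and CPM per kilobase are on library totals. Other CPM use TMM scaling unless library totals are named, and fold changes are on the log2 scale. Differences between organs were tested as interaction terms. Tables and figures were made with Python 3.11.15, pandas 2.3.3 and numpy 2.4.6. The scripts were tested on simulated data. Alternatives were DESeq2 1.42.0, RLE scaling, library totals, mitochondrial genes left out, no filter, 1 fit over 48 libraries, a replicate block and leaving out each library.

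Nanoparticle-associated and bulk libraries with the same number come from the same mouse, per the labels, and their deviations from the group means correlated at -0.14 to 0.66. BP and PBS numbers pair nothing, with correlations of -0.25 to 0.48. The members, lists and tests were chosen with earlier results of these data known. The text names the members that passed (the 8 with the smallest adjusted p per direction), otherwise up to 6 with the largest fold change where the mean log2 CPM reached 2, and the regulators Irf7, Isg15, Stat2 and Usp18 (pathway lists: at most 6 per comparison). Members whose groups did not overlap, Rsad2 in spleen and tumor, and Ifng were named after their values were seen. Of the members, 26 had an entry in the RefSeq promoter table. The NanoString data were not analysed here.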

Additional observations from a re-analysis of the deposited data

Results flagged for a closer look

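The effect of the fraction, nanoparticle-associated cells over bulk tissue, was compared between tumor, spleen, liver and bone marrow. It differed in 19 members by the interaction test over 24 libraries (edgeR, adjusted p under 0.05), where 58.3% of all genes did. In this fit, which has no mouse block, the share of members was no larger than that of all genes. Among RNA-binding and antiviral effectors the adjusted p was 8.47e-07 for Ifit2, 0.00894 for Ifit3, 0.00825 for Ifit3b, 0.0177 for Mx1, 0.0203 for Mx2, 0.0134 for Rsad2, 0.00213 for Cmpk2, 0.021 for Isg20 and 0.0486 for Eif2ak2. It was 0.00847 for Oasl2, 0.0303 for Oas1a, 0.00349 for Gbp2 and 0.0297 for the regulator Irf9. It was 2.94e-05 for Trim30a, 0.000691 for Parp14, 0.00331 for Ifi27l2a, 0.00444 for Xaf1, 0.00672 for Lgals3bp and 0.0258 for Rtp4. Organs of 1 mouse are not independent samples, and with the mouse as a block 23 members differed, where 58.9% of all genes did. With that block the share of members was larger than that of all genes.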

How the results depend on the processing

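With 3 mice per group, counts of called members changed with the processing, and the cause was not tested. Shares of all genes called stand in parentheses. For BP against PBS in tumor DESeq2 called 1 member (0.711%), as did the fit over 48 libraries (7.82%), and the replicate block called 0 in every organ. For nanoparticle-associated cells against bulk tumor DESeq2 called 2 (12.3%), no filter 2 (5.5%), the 48-library fit 6 (30.4%), and fits without 1 library 0 to 2 (0.131 to 12.8%). In spleen the 48-library fit called 9 (29%), fits without 1 library 8 to 17 (28.9 to 41.8%), and the replicate block 21 (54.1%). In bone marrow DESeq2 called 7 (6.09%), no filter 5 (5.29%), the 48-library fit 0 (1.97%), the replicate block 9 (20%), and fits without 1 library 0 to 4 (2.09 to 13.7%). In liver the count stayed within 1.5 times, at 26 with the replicate block (73.6%), 16 in the 48-library fit (55%) and 22 to 25 without 1 library (69 to 74.4%). There the median of all genes shifted by 0.42 with DESeq2, 0.31 without the filter and 0.12 in the 48-library fit. The BP interaction called 1 with DESeq2 (1.24%) and 0 to 1 without 1 mouse (up to 2.34%), and the nanoparticle-associated one 8 to 19 (35.4 to 40.5%). DESeq2 values with no adjusted p were left out.

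Fold changes of 16 uncalled results turned sign. Oas3 in tumor was 0.56 with the replicate block. With 1 library left out, tumor values ran from -1.997 to 1.82 for Oas3, -1.67 to 0.20 for Cmpk2, -1.20 to 0.21 for Ifit2 and -0.075 to 1.14 for Mx2. Spleen values ran from -0.28 to 1.20 for Oas3 and -0.40 to 0.88 for Isg15, which was -0.06 without PBS mouse 1. Liver values ran from -0.87 to 0.60 for Usp18, -0.91 to 0.013 for Zbp1 and -0.55 to 0.23 for Ifit3. Marrow Oas2 ran from -0.017 to 0.82, and in lung Isg15 ran from -0.10 to 0.58, Gbp3 from -0.46 to 0.23 and Isg20 from -0.028 to 0.47. Nanoparticle-associated Oas2 in tumor ran from -2.64 to 0.52. Over all named genes and settings, 80 fold changes lost a call and 19 gained one with the sign kept.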
